A study of Schizosaccharomyces pombe with 144 samples.

Results

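This account follows 49 nuclear genes of the mitochondrial respiratory chain and ATP synthase through synchronous meiosis of fission yeast. The genes were taken from a table of 5157 genes by name, as those whose symbol starts with atp, qcr, cox or sdh and a number, provided that their mean over 10 RNA libraries was 1 RPKM or more. RPKM is the number of reads of a gene per kilobase of its length and per 1000000 reads of its library. Of 55 names that matched, 6 fell under that mean (atp6, atp8, atp9, cox1, cox2 and cox3), and all 6 are genes of the mitochondrial genome in the reference annotation. The nearest values on either side of the limit were a mean of 0.552 RPKM for atp9 and 7.71 RPKM for atp10. By product name, 32 of the 49 genes encode subunits (4 of complex II, 7 of complex III, 8 of complex IV and 13 of the ATP synthase). The remaining 17, called assembly factors here, mostly help to build these complexes.

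The series holds 144 samples, of which the 10 total RNA libraries of the meiotic course were used. They are growing cells, called mitosis here, and cells at each hour from 0 h to 8 h of meiosis. Per the labels, all 10 libraries came from the same diploid strain, SPB2819. It is h-/h-, carries ade6-M210 over ade6-M216 and has both pat1 copies replaced with NatR. On both homologues it carries pat1-as(L95A) with HygR. Pat1 is the kinase that holds back meiosis in growing cells, and the as allele is made to be inhibited by a drug. It also has cen2(D107)::KanR-ura4+-lacO with his7+::lacI-GFP, and lys1::MatPc-Bleo, a mating-type gene cassette. The titles give clr4 as wild type. All values are thus from 1 engineered strain. Per the labels, growing cultures were in the rich medium YES. How meiosis was started, and in which medium, is not given in the sources used here. Libraries were scaled by the authors to 14998460 reads (6 h) to 20734255 reads (mitosis). Each stage has 1 library, so no value has an SD, no difference has a replicate check and no p-value is given. Stage markers followed the labels, with the meiotic cohesin gene rec8 highest at 3 h, the transcription factor gene mei4 at 5 h and the spore gene isp3 at 8 h. The further markers mei2 and ste11 were highest at 0 h, at 1240 and 207 RPKM against 14.1 and 9.01 RPKM in mitosis. At 0 h rec8 and isp3 already read 222 and 6766 RPKM, against 2.67 and 91.2 RPKM in mitosis. The 0 h library thus already differed from growing cells in these genes.

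Mitochondria make most of the ATP of respiring cells. Complex II (succinate dehydrogenase) passes electrons from succinate to ubiquinone, complex III (cytochrome bc1) passes them from ubiquinone to cytochrome c, and complex IV (cytochrome c oxidase) passes them to oxygen. Complexes III and IV pump protons, and the ATP synthase uses the proton gradient to make ATP, with its F1 part in the matrix and its Fo part in the inner membrane. Fission yeast has no proton-pumping complex I. It ferments glucose readily and also respires, and a few core subunits of complexes III, IV and Fo are made inside the organelle, so both genomes contribute to each of these enzymes.

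A short sequence that the choice of genes did not use was found before most of the complex II and III genes taken here by name. The letters CCAAT, the sequence bound by the Php complex of fission yeast, were searched on both strands from 250 bases before to 50 bases after each annotated start (RefSeq, build ASM294v3). All 49 genes had such a window. CCAAT was in the windows of 4 of 4 complex II genes and 6 of 7 complex III genes, the exception being qcr9. It was in 4 of 8 windows for complex IV, 7 of 13 for the ATP synthase and 6 of 17 for the assembly factors. Of all 5113 nuclear protein-coding genes, 42.2% had it, and 11 of the 32 subunit genes lacked it. In all, 27 of the 49 genes (55.1%) had it. Of related genes outside the 49, it was in 8 of 14 windows for the tricarboxylic acid cycle. For respiratory genes named outside the rule, it was in 3 of 9 (33.3%), under the share of all genes. The windows around CCAAT are shown for the 10 genes of complexes II and III that have it, since these are the groups with the highest share. Each line is read 5′ to 3′ on the strand of the gene and is the copy nearest to the start that has 20 bases on either side within the region before the start. Capitals mark CCAAT, or ATTGG where it lies on the other strand.
sdh1: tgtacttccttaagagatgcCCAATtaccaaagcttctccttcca
sdh2: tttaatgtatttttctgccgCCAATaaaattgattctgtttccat
sdh3: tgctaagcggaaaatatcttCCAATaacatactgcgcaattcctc
sdh4: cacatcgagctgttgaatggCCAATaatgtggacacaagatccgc
qcr1: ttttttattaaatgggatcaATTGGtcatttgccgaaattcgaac
qcr2: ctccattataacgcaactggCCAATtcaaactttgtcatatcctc
qcr6: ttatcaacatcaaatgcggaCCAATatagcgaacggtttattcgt
qcr7: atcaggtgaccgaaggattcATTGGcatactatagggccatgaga
qcr8: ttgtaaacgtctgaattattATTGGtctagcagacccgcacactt
qcr10: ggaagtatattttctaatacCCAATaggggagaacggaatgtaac

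The copies in these 10 genes began 13 to 226 bases before the start, and sdh1, sdh2, sdh3, sdh4, qcr2, qcr6 and qcr10 had at least 1 on the strand of the gene. In sdh4 another copy begins 13 bases before the start. The HOMOL-D box CAGTCACA, known from ribosomal protein genes of fission yeast, was in 0 of 49 windows, against 86 of 136 windows of cytosolic ribosomal protein genes and 2.68% of all. The forkhead sequence GTAAACAA, bound by Mei4 in this yeast, was in 2 of 49 windows (atp12 and sdh7), against 9.93% of all. None of these 3 sequences contains another. A match describes these letters only.

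Levels of most subunit genes were above those of the assembly factors, with cox24 and cox7 at the border. Means over the 10 libraries ran from 104 RPKM (cox7) to 918 RPKM (atp2) for the 32 subunit genes, and from 7.71 RPKM (atp10) to 104 RPKM (cox24) for the assembly factors. The ATP synthase beta subunit gene atp2 led, followed by cox13 (664 RPKM) and cox5 (487 RPKM) in complex IV and by qcr8 (637 RPKM) and qcr10 (622 RPKM) in complex III. In complex II the flavoprotein gene sdh1 (356 RPKM) and the cytochrome b anchor gene sdh3 (347 RPKM) were close to each other, as were sdh2 (310.0 RPKM) and sdh4 (305 RPKM). The alpha subunit gene atp1 had a mean of 229 RPKM, although alpha and beta are present in equal number in F1. RPKM divides by length, and the length behind the atp1 values was 4799 bases, of which 1611 are coding. For atp2 these were 1906 and 1578 bases. In reads, atp1 reached 27069 and atp2 43929 in a single library. Why atp1 read lower than atp2 was not tested.

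At the start of meiosis the genes as a group read higher than in growing cells, and to about the same degree as the typical gene. The summed level of the 32 subunit genes was 7672 RPKM in mitosis and 12557 RPKM at 0 h. As a share of the RPKM of all genes this was 0.916% and 1.96%. The share read 1.74% at 1 h, lay between 1.51% and 1.71% from 2 h to 7 h and was 1.34% at 8 h, so every hour stood above mitosis. In bulk RNA, fewer cells at a stage and less RNA per cell cannot be told apart. RPKM is relative to all other RNA of the library, and cytosolic ribosomal protein genes took 25.6% of reads in mitosis and 4.95% at 0 h. Their part in the difference was not tested.

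**Figure D1:**
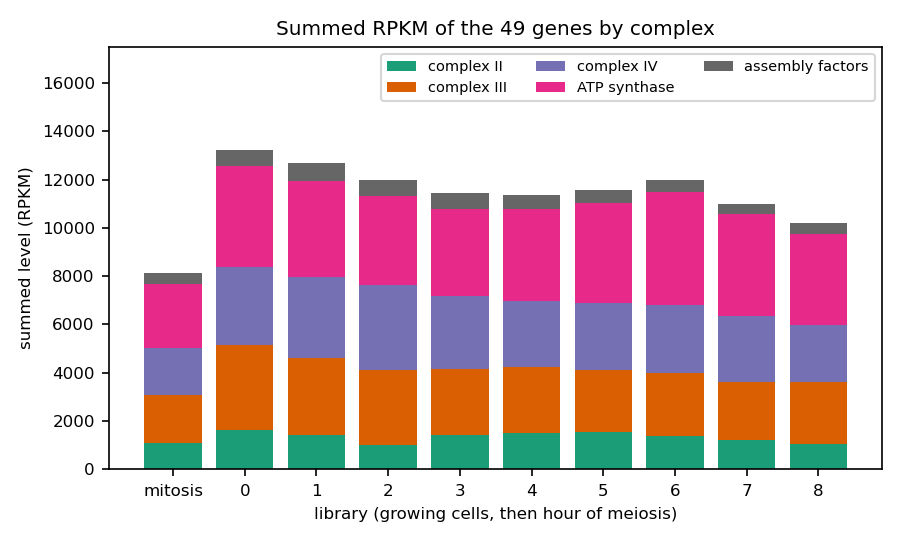
Summed level in RPKM (vertical axis) of the genes of each complex and of the assembly factors, stacked, in growing cells (mitosis) and at each hour of meiosis (horizontal axis), with 1 library per bar. The 32 subunit genes sum to 7672 RPKM in mitosis and 12557 RPKM at 0 h, and complex II is lowest at 2 h (983 RPKM).

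Changes are given as differences of log2(RPKM + 1). The words rose and fell, higher and lower are used as calls where the difference reached 2 on this scale (4-fold) or, as a milder limit, 1 (2-fold), and where the larger of the values was 5 RPKM or more. None of the 49 genes (0) rose 4-fold from mitosis to 0 h and 0 fell, where 8.9% and 3.47% of all 5157 genes did. At 2-fold, 8 of 49 were higher and 0 lower, against 27.9% and 9.13% of all genes. The 8 were cox18, atp7, cox7, cox19, qcr10, atp18, qcr6 and cox13. The share of members is under that of all genes. The median change was 0.61 over the 49 genes and 0.54 over the 5056 genes whose mean reached 1 RPKM, and 30 of the 49 genes lay above the latter. After each library was rescaled by its median ratio to a geometric mean library, these medians were 0.11 and 0.04, and 0 of 49 genes passed 2-fold, against 15.6% of all genes that were higher.

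The genes furthest above mitosis at 0 h were cox18, atp7, cox7 and cox19. The gene of Cox18, which in budding yeast inserts part of Cox2 into the membrane, read 10.7 RPKM in mitosis and 29.4 RPKM at 0 h, a ratio of 2.75 with an exact 95% counting interval of 2.41 to 3.14. All such intervals cover counting error only. The gene of ATP synthase subunit d, atp7, read 189.6 and 479.9 RPKM, a ratio of 2.53 with an interval of 2.43 to 2.64. The complex IV gene cox7 read 60.0 and 149.6 RPKM, and the copper protein gene cox19 read 16.3 and 40.7 RPKM. At the other end stood factors and 1 subunit of the ATP synthase. The gene atp25 read 12.6 and 10.1 RPKM, and the gene of Atp12, the chaperone of the F1 alpha subunit, read 31.4 and 26.6 RPKM. The gene of Atp11, the chaperone of F1 beta, read 29.7 and 30.2 RPKM, and that of subunit g, atp20, 254 and 259 RPKM. These last 2 differences lie within counting error, with intervals of the ratio of 0.923 to 1.12 and 0.965 to 1.08.

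Through meiosis most genes of complex IV and the ATP synthase moved little, and those of complexes II and III moved more, as deposited. Between the highest and lowest of the 9 hours, the median span over the 32 subunit genes was 0.74 on the log2 scale, and 1.16 over the assembly factors. By complex it was 1.24 for complex II, 1.14 for complex III, 0.60 for complex IV and 0.63 for the ATP synthase as deposited, and 1.13, 0.80, 0.93 and 1.07 after rescaling, so this order turns with the scaling. The same median was 1.60 over all 5056 genes and 1.65 over the 1208 genes whose mean reached 100 RPKM, a group that holds all 32 subunit genes. Of the 32, 31 spanned less than 1.65, the exception being atp15. A span under 2-fold was seen for 20 of the 32 subunit genes (62.5%), against 16.1% of those 1208 genes. After rescaling these were 19 of 32 (59.4%) and 19.2%, and the median span of the subunit genes was 0.95 against 1.63. The least variable members were atp5 (the OSCP subunit, 0.23), atp4 (subunit b of the stator, 0.26) and qcr7 (0.28). The gene atp5 read between 278 and 326 RPKM at every hour.

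**Figure D2:**
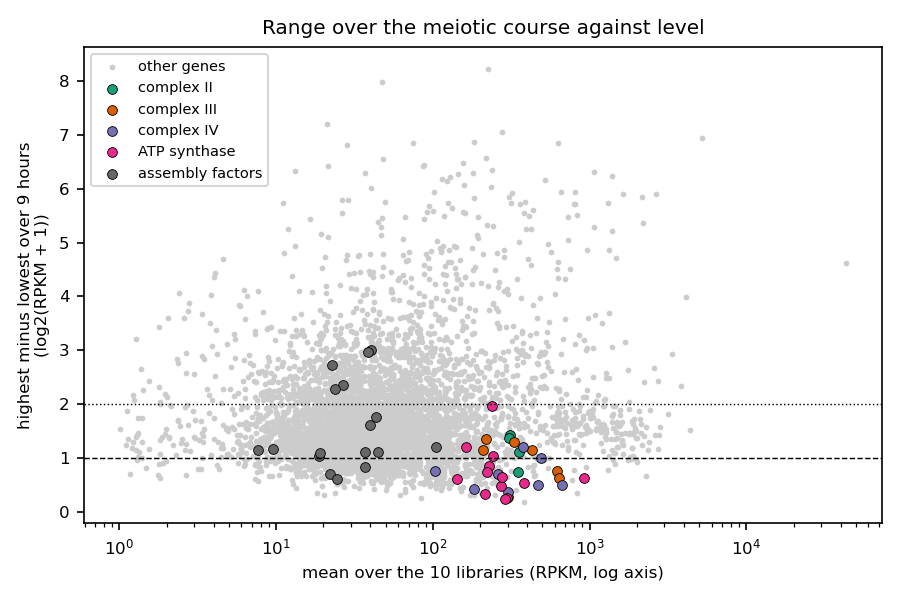
Span between the highest and lowest of the 9 hours of meiosis on the log2(RPKM + 1) scale (vertical axis) against the mean over the 10 libraries in RPKM (horizontal axis, log scale), for each gene whose mean reached 1 RPKM. Dashed and dotted lines mark 2-fold and 4-fold. The 32 subunit genes (coloured) lie low for their level, with a median of 0.74 and none at 2 or more, and 5 assembly factors (dark grey) lie at 2 or more.

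Against 0 h, 0 of 49 genes rose 4-fold at any hour and 3 fell, where 7.56% and 13.1% of all genes were. At 2-fold, 2 of 49 were higher (atp15 and atp19) and 12 lower, against 20.6% and 50.3% of all genes. The split rests on the scaling. After rescaling, 11 of 49 were higher at 2-fold and 3 lower, against 32.5% and 24.3% of all genes. At 4-fold, 1 (atp15) was then higher and 2 lower, against 11.5% and 4.67%. The median change of all genes was -0.34, -0.71, -0.79 and -0.49 at the hours from 5 h to 8 h as deposited, and between -0.01 and 0.07 at every hour after rescaling. The share of reads taken by isp3 alone was 0.681% at 0 h, 7.87% at 6 h and 13.6% by 8 h. Its part in these shifts was not tested.

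**Figure D3:**
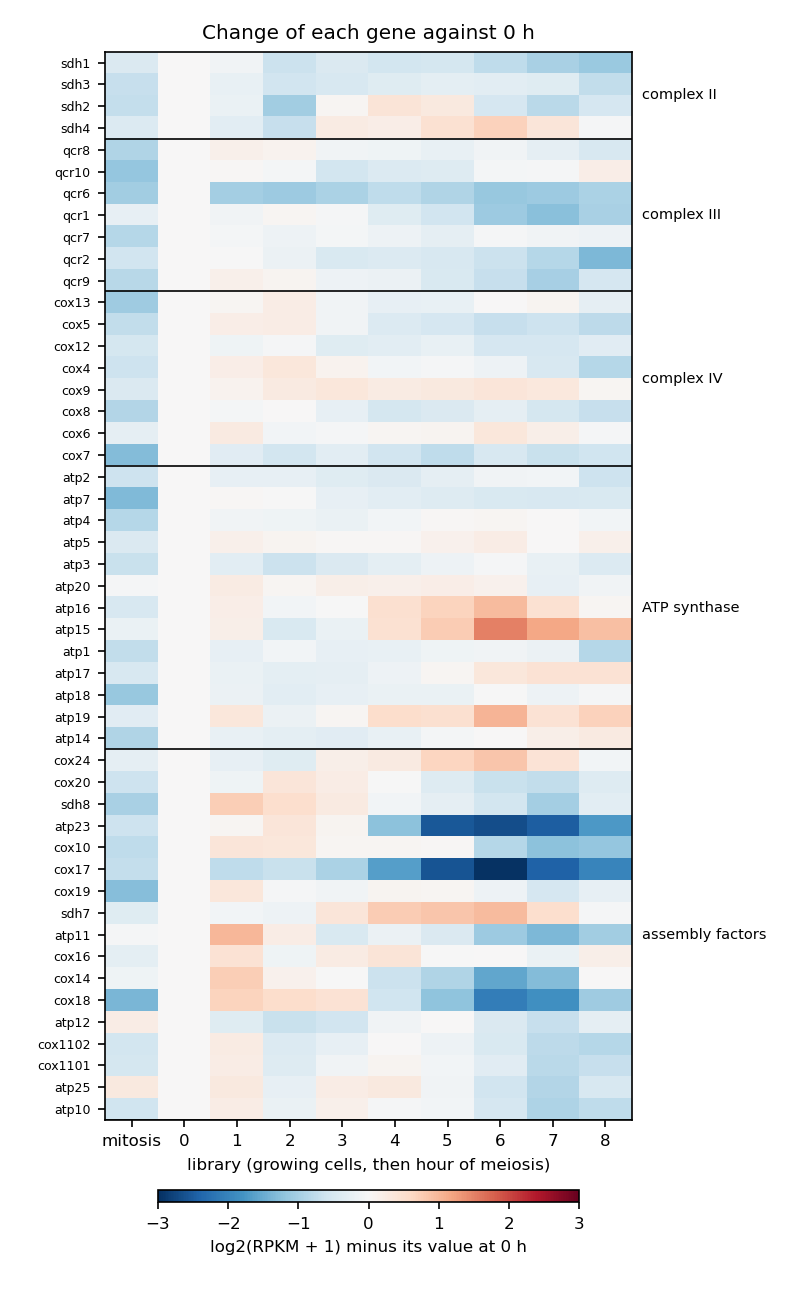
Difference of log2(RPKM + 1) from 0 h (colour) for each of the 49 genes (rows, grouped by complex and ordered by mean level) in growing cells and at each hour of meiosis (columns), 1 library each, as deposited. Blue is lower and red higher than at 0 h. The darkest blue is cox17 at 6 h (-2.97), and the strongest red is atp15 at 6 h (1.51).

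The 3 genes that fell 4-fold or more were all assembly factors: cox17, atp23 and cox18. Cox17 is a copper chaperone that supplies complex IV. Its gene read 54.2 RPKM in mitosis and, from 0 h to 8 h, 89.2, 52.5, 55.5, 46.0, 27.5, 14.0, 10.5, 15.6 and 21.7 RPKM. It was highest at 0 h and lowest at 6 h, close to its mitotic level at 1 h and 2 h and under it from 3 h on. At 6 h it was 8.49 times lower than at 0 h, a change of -2.97 (-2.25 rescaled), and its 88 reads there are the fewest behind any value of the 49 genes.

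Atp23 is an inner membrane peptidase that in budding yeast matures Atp6 of the Fo part. Its gene read 42.1 RPKM in mitosis and then 64.7, 67.0, 83.3, 68.5, 27.0, 10.3, 9.48, 10.8 and 18.8 RPKM from 0 h to 8 h. The level was at 64.7 RPKM or above until 3 h and at or under 27.0 RPKM from 4 h. The change from 0 h was -2.54 at 5 h (-2.19 rescaled) and -2.65 at 6 h (-1.93 rescaled), so the 4-fold call stood under both scalings, at 5 h.

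The gene cox18 read 10.7 RPKM in mitosis and then 29.4, 47.1, 42.6, 40.4, 19.2, 12.1, 6.27, 7.49 and 13.5 RPKM. At 1 h it was above mitosis by 2.04, which made it the only member 4-fold or more above mitosis at any hour, against 19.5% of all genes. With a pseudocount of 5, or without the 1 h library, no member was, and after rescaling 0 were, against 18.0%. Its change from 0 h to 6 h was -2.07 (-1.37 rescaled). At 5 h, 6 h and 7 h, 2, 3 and 2 of the 49 genes were lower at 4-fold, where 4.77%, 10.3% and 9.89% of all genes were. At 8 h it was 0, where 4.6% of all genes were lower, and cox17 had a change of -1.99. Against mitosis, 2 of 49 (cox17 and atp23) were lower at 4-fold at any hour, where 11.7% of all genes were. Both passed this limit in the 6 h library alone, and without it the count was 0.

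**Figure D4:**
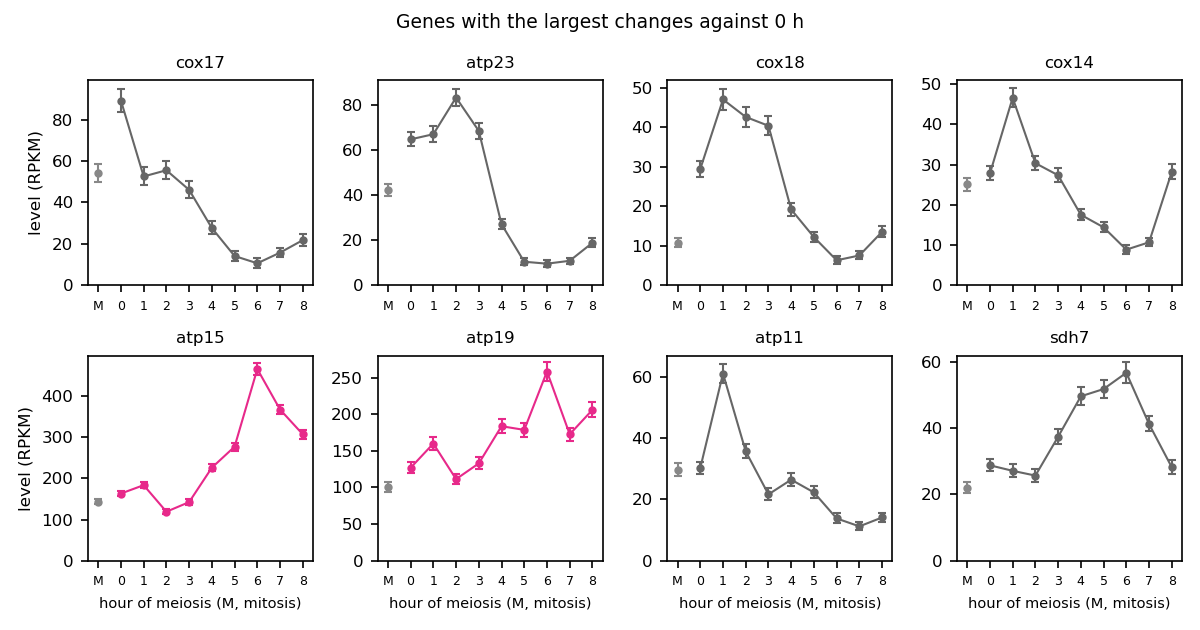
Level in RPKM (vertical axes, each from 0) of the 4 genes with the largest falls (top row) and the 4 with the largest rises (bottom row) against 0 h, in growing cells (M, light grey) and at each hour of meiosis, with exact Poisson 95% counting intervals as bars and 1 library per point. The genes cox17, atp23 and cox18 are lowest at 6 h, atp15 peaks at 6 h (467 RPKM) and atp11 at 1 h (61.0 RPKM).

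Other assembly factors fell 2-fold or more at some hour. The gene of Cox14, which in budding yeast couples Cox1 synthesis to assembly, read 27.8 RPKM at 0 h, 46.6 RPKM at 1 h, 8.80 RPKM at 6 h and 28.2 RPKM at 8 h. It thus returned to its 0 h level at the end, and its step from 7 h to 8 h was 1 of 2 steps between neighbouring hours at which a member was 2-fold or more higher, against 18.4% of all genes at any step. The chaperone gene atp11 read 30.2 RPKM at 0 h and 61.0 RPKM at 1 h, a difference of 0.99 that is just under the 2-fold limit (1.08 rescaled). It then read 35.6, 21.6, 26.4, 22.2, 13.8, 11.2 and 14.1 RPKM. The heme A pathway gene cox10 read 45.8 RPKM at 0 h, 59.5 RPKM at 1 h and 18.9 RPKM at 7 h, and the complex II factor gene sdh8 read 45.3, 75.7 and 21.8 RPKM at these hours. After rescaling, only atp23, cox17 and cox18 were still 2-fold or more lower at any hour.

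Of the assembly factors, 11 of 17 were highest at 1 h, among them atp11, cox14, cox18, cox10, cox19 and sdh8, as were 4 of 32 subunit genes and 19.5% of the 5056 genes. After rescaling these were 6 of 17, 0 of 32 and 14.0%. The 11 include cox1101 and cox1102, near-identical copies whose reads may not be separate. They also include atp25 (12.52 RPKM at 1 h and 12.51 RPKM at 4 h) and cox16 (31.5 and 30.8 RPKM). For these last genes the counting intervals at 1 h and 4 h overlap. The complex II factor gene sdh7 was highest at 6 h, where it read 56.6 RPKM against 28.7 RPKM at 0 h, and sdh8 was highest at 1 h. The gene cox24, annotated as the mitochondrial ribosomal protein mS38, was also highest at 6 h (164 RPKM against 91.4 RPKM at 0 h). With rescaled values, or with a running mean of 3 hours, the hour of the highest value moved for 26 and 32 of the 49 genes, so these hours describe the deposited values.

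The other members moved within narrower limits. From 0 h to 8 h the assembly gene cox20 read between 29.9 RPKM (7 h) and 66.1 RPKM (2 h), and cox16 between 20.2 and 31.5 RPKM. The ATP synthase factor genes atp12, atp25 and atp10 read between 16.2 and 26.9, 5.03 and 12.5, and 4.35 and 10.9 RPKM. Among subunit genes, qcr9 read 290.1 RPKM at 1 h and 131 RPKM at 7 h, cox12 read between 401 and 569.5 RPKM and atp18 between 201 and 252 RPKM. All 49 genes had 5 RPKM or more in at least 1 library, so the limit on low values removed none.

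In the ATP synthase, the genes that read furthest above 0 h at 6 h were those of small subunits: atp15, atp19 and atp16. The gene of F1 epsilon, atp15, read 143 RPKM in mitosis and then 163, 184, 119, 142, 226, 277, 467, 368 and 308 RPKM from 0 h to 8 h. Its lowest value was at 2 h and its highest at 6 h, where it was 2.86 times its 0 h level (counting interval 2.71 to 3.01), a difference of 1.51, or 2.26 after rescaling. F1 delta, atp16, the partner of epsilon in the stalk, read 199 RPKM at 0 h, 385 RPKM at 6 h and 208 RPKM at 8 h, a difference of 0.95 at 6 h. The gamma subunit gene atp3, which forms the shaft of the same stalk, read 343 RPKM at 0 h, 219 RPKM at 2 h and 332 RPKM at 6 h, and so was not above its 0 h level. The Fo gene atp19 (subunit k) read 127, 258 and 206 RPKM at 0 h, 6 h and 8 h, with a difference of 1.02 at 6 h.

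Over all 13 ATP synthase genes the median lay between -0.25 and 0.06 at every hour from 1 h to 8 h, and was 0.06 at 6 h and 0.00 at 7 h, where the medians of all genes were -0.71 and -0.79. All 13 were above the median of all genes at both hours. After rescaling, the medians of the 13 were 0.81 and 0.85. Single genes departed further from 0 h, with atp3 at -0.65 at 2 h and atp1 at -0.86 at 8 h (-0.36 and -0.30 rescaled). At the end of the course the catalytic pair read lower, with atp2 at 1052 RPKM at 7 h and 725 RPKM at 8 h and atp1 at 242 and 151 RPKM. The Fo and stator genes atp17 and atp14 were highest at 8 h, at 297 and 187 RPKM against 218 and 155 RPKM at 0 h.

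In complex III, both core genes and some of the small subunit genes read well below 0 h in the late hours. Qcr1 is a core protein that is also annotated as the beta subunit of the mitochondrial processing peptidase. Its gene read 361 RPKM in mitosis and then 429.6, 398, 446, 417, 332, 290.5, 203, 180.5 and 220.1 RPKM, a 2-fold fall at 6 h and 7 h (-1.25 at 7 h, -0.40 rescaled). The other core gene, qcr2, read 299.8 RPKM at 0 h and 116 RPKM at 8 h. At 7 h, the changes of the small subunit genes qcr6 and qcr9 were -1.08 and -0.99 (-0.23 and -0.14 rescaled) and that of qcr8 was -0.27 (0.58 rescaled). The genes qcr7 and qcr10 read 339 and 714 RPKM at 0 h and 305 and 818 RPKM at 8 h. The median over the 7 genes was -0.64 at 6 h and -0.85 at 7 h, beside -0.71 and -0.79 for all genes. At 3 h and 4 h, 0 of 7 genes lay above the median of all genes, at 5 h 2 did and at 6 h 5 did.

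The hinge protein gene qcr6 was high in 1 library only. It read 374 RPKM in mitosis, 774 RPKM at 0 h, and 378, 361, 403, 455, 414, 350.2, 365 and 399.9 RPKM from 1 h to 8 h. Every library other than 0 h was thus at 455 RPKM or less, and the 2-fold calls of qcr6 at 1 h, 2 h, 6 h and 7 h rest on the 0 h library. A long noncoding RNA annotated on the opposite strand covers 93.9% of qcr6 and has no values here. Such RNAs also cover 100% of atp18, atp20, cox24 and qcr10. Any part of this RNA in the values of qcr6 was not tested.

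All 4 complex II genes read lower at 2 h than at 1 h. The iron-sulfur subunit gene sdh2 read 221 RPKM in mitosis and then 365, 315, 177, 378, 476, 448, 258, 207 and 255 RPKM. It was lowest at 2 h and highest at 4 h, and 1 of 49 members, sdh2, was higher at 2-fold from 2 h to 3 h, against 4.48% of all genes. After rescaling 0 were, against 2.35%. The anchor gene sdh4 read 284, 227, 176, 338, 323, 388, 456, 365 and 278 RPKM from 0 h to 8 h, with its lowest value also at 2 h. The genes sdh1 and sdh3 read 326 and 304 RPKM at 2 h against 475 and 391 RPKM at 1 h. All 4 lay under the median of all genes at 2 h, both as changes from 0 h (group median -0.66 against -0.27) and as changes from mitosis. The group median was -0.38 after rescaling. Later, sdh1 read 235 RPKM at 8 h, its lowest, while sdh4 was highest at 6 h. Of the 49 genes, 2 (sdh2 and qcr6) were lower at 2 h than at 0 h by 2-fold, against 12.5% of all genes.

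The reference places members side by side at a pair of sites. The genes qcr1 and sdh4 are divergent neighbours, with 1160 bases between their annotated starts. From 0 h to 6 h qcr1 read 429.6 and then 203 RPKM while sdh4 read 284 and then 456 RPKM. The genes cox17 and sdh8 lie in tandem with 504 bases between them. From 0 h to 1 h cox17 read 89.2 and then 52.5 RPKM while sdh8 read 45.3 and then 75.7 RPKM. From 2 h to 6 h both read lower, cox17 from 55.5 to 10.5 RPKM and sdh8 from 64.6 to 30.7 RPKM. These are the only pairs of the 49 genes that are direct neighbours among protein-coding genes of the reference.

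Of the 8 complex IV subunit genes, 4 were highest at 2 h (cox13, cox4, cox5 and cox8), and cox5 read 598 RPKM at 0 h, 697 RPKM at 2 h and 348 RPKM at 8 h. The gene cox4 read 409, 522 and 225 RPKM at these hours. By contrast cox9 and cox6 were highest at 6 h, with cox9 at 266 RPKM at 0 h and 344 RPKM at 6 h. No complex IV subunit gene passed 2-fold against 0 h at any hour as deposited, where 20.6% of all genes were higher and 50.3% lower. After rescaling, 2 of the 8 were 2-fold or more higher, where 32.5% of all genes were. The median over the 8 was -0.21 at 6 h and -0.50 at 7 h, above the median of all genes at both hours for 8 of 8 genes.

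The likeness of courses was measured as Pearson's r of log2(RPKM + 1) over the 9 hours between each gene and the mean of the others. The genes most like the rest were sdh1 (r = 0.94) and atp10 (r = 0.93), and the least like were atp17 (-0.84), atp15 (-0.77) and atp14 (-0.74). In all, 34 of 49 genes had an r above 0 and 15 below, and 9 of these 15 were ATP synthase genes. These values share the libraries and their scaling and are a description. After rescaling, the r of atp17 was 0.78 and that of atp10 -0.18, so the order turns with the scaling. Outside the 49, the genes with a symbol and a mean of 5 RPKM or more that were most like the mean course were mrpl1601, ppk26, pot1, dcr1 and myo52 (r of 0.97 to 0.98).

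Genes that work beside these complexes included larger movers. The tricarboxylic acid cycle feeds electrons to complex II. Of its 14 genes, 3 rose 4-fold from mitosis to 0 h, where 8.9% of all genes did. After rescaling 0 did, where 5.66% of all genes did. The median over the list was 1.27 (0.75 rescaled). The citrate synthase gene cit1 read 165 RPKM in mitosis, 723 RPKM at 0 h, 1331 RPKM at 1 h and 182 RPKM at 8 h. The fumarase gene fum1 read 152, 379.7, 239 and 69.7 RPKM in these libraries. The median of the list against 0 h was -1.26 at 8 h (-0.71 rescaled), where that of the 32 subunit genes was -0.38 (0.18 rescaled). Of the carriers, the ADP/ATP exchanger gene anc1 read 423 RPKM in mitosis, 1159 RPKM at 0 h and 235 RPKM at 8 h. Only 1 of the 5 carrier genes read higher at 0 h than in mitosis, and the median of that list was -0.83 (-1.32 rescaled).

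**Figure D5:**
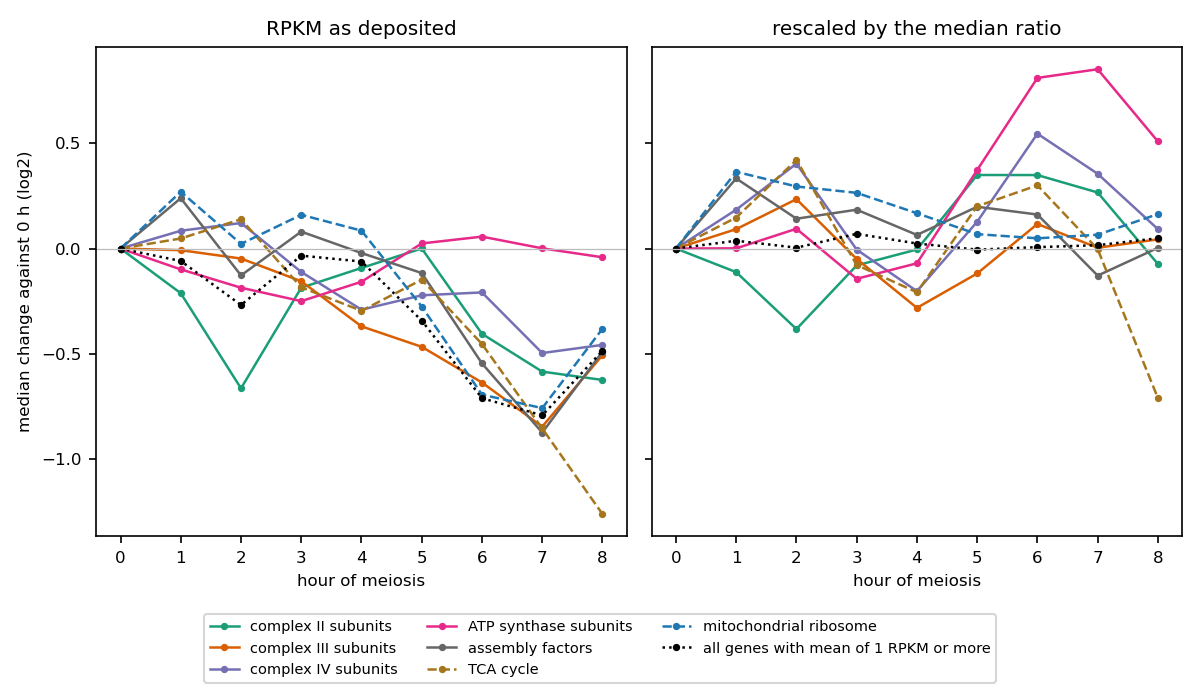
Median change against 0 h on the log2(RPKM + 1) scale (vertical axis) by hour of meiosis (horizontal axis) for the subunit genes of each complex, the assembly factors, the tricarboxylic acid cycle genes, the mitochondrial ribosomal protein genes and all genes whose mean reached 1 RPKM, as deposited (left) and rescaled (right), from 1 library per hour. At 6 h the ATP synthase median is 0.06 as deposited and 0.81 rescaled, above every other list drawn.

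Of all genes, 13.1% were 4-fold or more lower than 0 h at any hour as deposited, and 4.67% after rescaling. Other lists gave the following counts of genes that were this much lower, as deposited and after rescaling. They were 7 and 0 of 56 mitochondrial ribosomal protein genes, 2 and 0 of 14 cycle genes, 2 and 0 of 12 ubiquinone genes, 1 and 0 of 5 carriers, 1 and 0 of 14 genes of mitochondrial transcription and RNA, and 1 and 0 of 19 further assembly genes. Of 28 import and inner membrane genes, 9 further respiratory genes and 11 regulators, 0 were. Named by the largest change, they include mrpl38 (271 RPKM at 0 h, 46.4 RPKM at 6 h), the ubiquinone genes coq7 (207 and 47.2 RPKM) and coq9 (105 and 23.6 RPKM), mss51 (37.5 and 6.89 RPKM) and ppr2 (29.6 and 6.44 RPKM). Among genes called higher, mrpl1 read 157 RPKM at 0 h and 1246 RPKM at 6 h, and the regulator gene rsv1 read 3.94 RPKM at 0 h and rose by 2.22 on the log2 scale at 1 h. The gene php2, of the complex that binds CCAAT, read 43.6 RPKM at 0 h, 59.1 RPKM at 4 h and 10.6 RPKM at 7 h.

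The next genes, up to SPAC11G7.01, did not pass 4-fold against 0 h as deposited. The gene bcs1, an assembly factor for the iron-sulfur protein of complex III, read 30.9 RPKM in mitosis, 182 RPKM at 0 h and 46.2 RPKM at 8 h. The genes dld1 and gut2 read 357 and 17.5 RPKM at 0 h and 95.6 and 4.85 RPKM at 6 h. The prohibitin gene phb1 read 195.5 RPKM at 0 h and 60.3 RPKM at 6 h, and the import gene tim44 read 50.4 and 13.7 RPKM. The anion carrier gene oac1 read 32.4 and 12.4 RPKM. The gene SPAC11G7.01, annotated as Mtl2, read 55.0 and 13.3 RPKM. It entered these lists by name and is not taken here as a mitochondrial gene. Outside the mitochondrion, glycolytic genes passed 4-fold, with adh1 at 1475 RPKM at 0 h and 183 RPKM at 2 h and tdh1 at 2082 and 372 RPKM. Of 137 cytosolic ribosomal protein genes, 116 fell 4-fold from mitosis to 0 h, where 3.47% of all genes did. Among them, rpl3002 and rpp203 read 324 and 1320 RPKM in mitosis and 60.7 and 60.0 RPKM at 0 h.

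Some of these values may hold reads of other genes, since the use of strand in counting is not given in the sources used here. In the reference, 42 of the 49 genes are overlapped on the opposite strand by an annotated gene, mostly a long noncoding RNA. For 14 it is a protein-coding gene, and for 7 (atp1, atp10, atp12, atp25, cox8, qcr9 and sdh7) such a gene covers 50% or more of the length. The partner of atp10, gos1, read 38.3 RPKM at 0 h against 9.17 RPKM for atp10. The genes cox1101 and cox1102 are near-identical copies, and their coding sequences of 2262 bases differ at 3 positions. They read 22.3 and 23.3 RPKM at 0 h, and how the authors' counting divided their reads is not known.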

How the data were processed

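The authors deposited RPKM values per gene for 10 total RNA libraries, with further columns named TPM, per the file headers. Libraries were made with the TruSeq Stranded Total RNA kit, per the labels. STAR 2.7.3a, Bowtie 1.2.2, SAMtools 1.9, bedtools 2.26.0 and 2.27.1, cutadapt 1.18 and bcl2fastq 1.17 are named in the submitters' processing notes with the builds ASM294v2 and mm10, without the step that used each. Which counting tool was used, and how it treated strand and reads with several matches, is not given in the sources used here. The columns named TPM summed to between 773446 and 1.31531e+06 per library rather than to 1000000, and no comparison uses them. Their ratio to RPKM gave whole reads for all 5157 genes and the gene lengths behind them, except for 8 genes at 0 in all libraries. These lengths equal the exonic length of the reference used here for 273 genes.

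Each stage has 1 library, so calls follow a rule of size on log2(RPKM + 1), with a pseudocount of 1, and no test across samples was made. Behind the members' values stand 88 to 43929 reads (median 2933.5), and the widest 95% Poisson half-interval was 21.5% (cox17 at 6 h). The rescaled setting divides each library by its median ratio to the geometric mean library. The members, the lists and the rules were chosen with earlier results of these data known. Named by rule were the members with the highest mean of each complex, the largest rises and falls against 0 h and against mitosis, and the highest and lowest likeness, and for other lists the largest changes against 0 h. Genes described for their role or neighbour, such as qcr6, sdh2 and sdh8, were chosen after their values were seen. Alternatives were other pseudocounts, floors, limits, scalings, a reference of mitosis and leaving out each hour. Names, lengths, neighbours and promoters came from RefSeq (ASM294v3), matched by symbol for 3636 genes, by systematic ID for 1392 and by synonym for 102, with 27 unmatched, and no coordinates are given since the builds differ. The calling step was checked on simulated data. The work used matplotlib 3.10.9, SciPy 1.17.1, NumPy 2.4.6 and pandas 2.3.3 under Python 3.11.15. The other 134 samples were not analysed here.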

Additional observations from a re-analysis of the deposited data

Results flagged for a closer look

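Genes of the mitochondrial genome, left out by the limit on the mean, had few reads. Of them, cox1, cox2, cox3 and atp9 had more than 3 in at least 1 library. The mark of 3 only picks genes to list, and does not test whether the reads are stray. The most reads in any library were 28 for cox1 (8 h), 9 for cox2 (0 h), 6 for cox3 (0 h) and 6 for atp9 (3 h). In cox1 more than 3 reads were found in 10 of 10 libraries, in cox2 in 6, in atp9 in 2 and in cox3 in 1. Over the 10 libraries these genes had 137, 42, 23 and 26 reads in that order of cox1, cox2, atp9 and cox3, while atp6 had 3 and atp8 had 0. Why so few reads were counted for these genes was not tested.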

How the results depend on the processing

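No paired analysis was possible because each stage has 1 library and no model was fitted. Floors of none and of 20 RPKM and a pseudocount of 0.1 moved none of the 10 main counts by over 1.5 times. From mitosis to 0 h, 0 members were higher at 4-fold and 8 at the 2-fold limit. Against 0 h at any hour, 0 were higher at 4-fold, and 1 after rescaling, 1 with mitosis as the reference and 2 at 2-fold. The count of lower members, 3, was 12 at 2-fold and 0 among subunits only. Against mitosis at any hour, the 1 higher member (cox18) was 0 with a pseudocount of 5, after rescaling and among subunits only, 4 at a 3-fold limit, 20 at 2-fold and 2 with RPKM scaled to sum to 1000000, an alternative chosen after seeing the data. The 2 lower members were 0 with a pseudocount of 5, among subunits only and with that scaling, and 5 at 2-fold. The share of all genes at 2-fold or 3-fold against mitosis at any hour is not given here. These counts against mitosis thus show only how the calls move with the setting, and are not a result about the members. Between neighbouring hours, 0 members were higher and 0 lower at 4-fold, and 2 and 3 at 2-fold, where 18.4% of all genes were higher. In the other mitochondrial lists, the 2 genes higher than at 0 h were 1 with a pseudocount of 5 and without 1 h, 15 at 2-fold and 14 with mitosis as the reference. The 14 lower were 6 with a pseudocount of 5, 0 after rescaling, 41 at 3-fold and 88 at 2-fold. Of all genes, 20.6% were higher and 50.3% lower than at 0 h at 2-fold. Leaving out any hour kept the members' counts against 0 h within 1.5 times, at 0 higher and 2 to 3 lower. Against mitosis, in runs added after seeing the data, it gave 0 to 1 higher (0 without 1 h) and 0 to 2 lower (0 without 6 h). With 1 library per stage, spread between cultures is unknown. Read depth limits mostly the low assembly genes, and also the subunit gene cox7, which had 224 reads in mitosis.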

Other observations

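Cytochrome c, which carries electrons from complex III to complex IV, had a dip at the same hour as sdh2 and sdh4. Its gene cyc1 read 479 RPKM in mitosis and then 387, 277, 176, 416, 578, 570.4, 642, 632 and 529 RPKM from 0 h to 8 h. The lowest value was at 2 h and the highest at 6 h. The gene cyc1 was chosen for description after its values were seen. At 2 h the median change of all genes from 0 h was -0.27. Of 9 respiratory genes named outside the rule, 1 was then 2-fold or more lower, and 0 after rescaling, where 12.5% of all genes were as deposited. Of 15 glycolytic genes, 9 were, and 8 after rescaling, so lower values at 2 h are not particular to respiration. The Rieske protein gene rip1 and the cytochrome c1 gene cyt1, both of complex III but named outside the rule, read 628 and 614 RPKM at 2 h and 288 and 163 RPKM at 8 h, and were highest at 2 h.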
